A study of Mus musculus with 12 samples.

Results

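The 10 genes described here encode the heavy and light chains of striated muscle myosin: Myh1, Myh2, Myh4, Myl1 and Mylpf of fast fibres, Myh7, Myl2 and Myl3 of slow fibres, and Myh3 and Myh8 of developing fibres. They were taken by symbol from the 52636 gene identifiers of the count table, 1 identifier per symbol, so that 5 fast, 3 slow and 2 developmental isoforms were followed. RNA had been isolated from total paw tissue of 12 mice and each library came from 1 animal. The KBxN + 6F2 group (4 mice) had received serum of K/BxN mice, whose antibodies cause joint inflammation, and was treated with 6F2, an agonistic antibody against SIRPa, an inhibitory receptor of myeloid cells. The KBxN + aGP120 group (4 mice) had received the same kind of serum and anti-gp120, the negative control antibody, and both arthritic groups were taken 7 days after serum transfer. The Naive + aGP120 group (4 mice) had no arthritis and carried the control antibody too, so that no group was free of antibody. Strain, age, antibody doses and the part of the paw that was ground are not given in the labels.

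A sarcomeric myosin is made of a pair of heavy chains, which carry the motor heads, and of light chains that wrap the neck of each head. Every head holds 1 essential and 1 regulatory light chain. The heavy chain isoform sets how fast a fibre shortens and how much energy it uses, and adult limb fibres are typed by it. A paw holds small muscles beside its joints, bone and skin, so total paw tissue carries such RNA.

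The libraries were rich in muscle. A list of 17 muscle genes that holds no myosin (among them Acta1, Ckm, Ttn and Neb) summed to 120369 to 238875 CPM in KBxN + 6F2 mice, 126678 to 238269 CPM in KBxN + aGP120 mice and 178790 to 316600 CPM in Naive + aGP120 mice, where CPM is the library-scaled count unit, with TMM library factors. Of the 17 genes, 7 also belong to a list of fast fibre sarcomere genes read further below. Genes of the joint itself, such as Acan, Col1a1 and Prg4, were present as well, with 10669 to 14690 CPM, 8928 to 27392 CPM and 9219 to 14506 CPM in the same order of groups. Of the 10 genes of that list edgeR called 4 higher in KBxN + aGP120 than in Naive + aGP120 mice, beside 5.87% of all genes tested. The list median was a log2 change of 0.59, and by sign alone 4 of the 10 lay below 0. The test is described below. The sum over the list was 19112 to 27392 CPM in KBxN + aGP120 mice 2, 3 and 4 and 8928 CPM in mouse 1, and its part in the myosin values was not tested. The heart hormone genes Nppa and Nppb averaged at most 0.123 CPM in any group, under the level that 3 counts give in a library (0.17 to 0.394 CPM). A list of 7 heart muscle genes, of which 5 were tested, summed to 47.5 to 101 CPM in KBxN + 6F2 mice. It summed to 67.3 to 106 CPM in KBxN + aGP120 mice and to 63.7 to 96.5 CPM in Naive + aGP120 mice. Of 10 myeloid inflammation genes, edgeR called 7 higher in KBxN + aGP120 than in Naive + aGP120 mice, beside 5.87% of all genes. It called 5 lower in KBxN + 6F2 than in KBxN + aGP120 mice, beside 1.7% of all genes. By sign alone, 0 of the 10 lay below 0 in the first comparison and 8 in the second. One library stood apart. In KBxN + aGP120 mouse 1 the myeloid genes summed to 38.7 CPM, against 118 to 218 CPM in the other control-antibody mice, 42.9 to 61.0 CPM in KBxN + 6F2 mice and 24.7 to 29.6 CPM in Naive + aGP120 mice. The muscle list of that mouse reached 102% of the naive mean, against 54.1%, 61.7% and 80.6% in mice 2, 3 and 4 of its group. In bulk tissue, fewer muscle fibres and less myosin RNA per fibre cannot be told apart. The calls are therefore also given without mouse 1 and relative to the muscle list.

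The fast heavy chains Myh1 and Myh2 and the fast light chains were the most abundant members. Per kilobase of the longest coding transcript, Myh1, the IIx heavy chain of fast fibres, averaged 4893 ± 1022 CPM per kb in KBxN + 6F2 mice, 3407 ± 1722 in KBxN + aGP120 mice and 5031 ± 997 in Naive + aGP120 mice (SD, n = 4 each). Myh2, the IIa heavy chain of fast oxidative fibres, and Myl1, the fast essential light chain, came next and did not differ beyond their spread in naive mice, at 2782 ± 387 and 2630 ± 441 CPM per kb. Mylpf, the fast regulatory light chain, followed with 1576 ± 360 CPM per kb in the naive group. Then came a cluster whose spreads overlapped: Myh7, the slow heavy chain that the heart also uses, at 722 ± 177, Myh4, the IIb heavy chain of the fastest fibres, at 629 ± 165, and Myl2, the slow regulatory light chain, at 527 ± 121 CPM per kb. Myl3, the slow essential light chain, stood at 105 ± 21.0 CPM per kb. The embryonic heavy chain Myh3 (36.8 ± 10.1) and the perinatal heavy chain Myh8 (9.97 ± 1.961 CPM per kb) were lowest, but each had counts in every library. Together the 10 genes took 4.32 to 5.85% of all counts in KBxN + 6F2 mice, 2.397 to 5.595% in KBxN + aGP120 mice and 5.200 to 6.45% in Naive + aGP120 mice.

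On GRCm38 (GENCODE M21 annotation) 5 of the 6 heavy chain genes lie side by side on the plus strand of chromosome 11. Their order is Myh3 (67078300 to 67102291), Myh2 (67171027 to 67197517), Myh1 (67200052 to 67224575), Myh4 (67238029 to 67260446) and Myh8 (67277124 to 67308634). Myh7 lies on the minus strand of chromosome 14 (54970684 to 54994626). The light chain genes are scattered, with Myl1 on chromosome 1 (66924295 to 66945404), Myl2 on chromosome 5 (122100951 to 122113472), Mylpf on chromosome 7 (127208890 to 127214298) and Myl3 on chromosome 9 (110741861 to 110769798). Because the heavy chains are near copies of each other, some reads fit several genes, and the handling of such reads is not given in the sources used here. Of all 75-base stretches of the longest coding transcript, 16.6% of Myh1, 16.3% of Myh2, 12.9% of Myh8, 9.68% of Myh4 and 1.86% of Myh3 also occur in another gene's transcripts. Myh7 shares 15.3% with Myh6 of the heart, which averaged 29.7 ± 6.16, 22.7 ± 9.50 and 33.9 ± 7.95 CPM in KBxN + 6F2, KBxN + aGP120 and Naive + aGP120 mice. Myl1 shares 16.6% with the pseudogene Mylf-ps, which held counts of its own, at 933 to 1330, 252 to 911 and 998 to 1309 CPM in the same order. None of the stretches of Myl2, Myl3 and Mylpf occurs elsewhere, while exon bases outside the longest coding transcript were not checked. Exons of an opposite-strand gene overlap those of Myh1 (Myhas), Myh2 (9430073C21Rik), Myh7 (Mhrt), Myl2 (Ccdc63) and Myl3 (Pth1r), and the strand setting of the counting is not known. Ccdc63 had 52 counts over all libraries and Pth1r 3511.

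The start regions of the clustered heavy chain genes share more than their neighbourhood. Of the RefSeq promoter windows (GRCm38.p6, 250 bases before to 50 after each start), the 250 bases before the start were searched. The longest stretch common to Myh1, Myh2, Myh4 and Myh8 was a 14-base element. It was chosen from these 4 windows, so its presence in them was given. The element, read on both strands, occurred in 4 of 32851 windows (0.0122%), which were those of these 4 genes. They are printed to show how alike their start regions are, with the shared element in capitals, 5′ to 3′ on the plus strand, at chr11:67199882-67199975 for Myh1, chr11:67170842-67170935 for Myh2, chr11:67237594-67237687 for Myh4 and chr11:67277010-67277103 for Myh8.
Myh1: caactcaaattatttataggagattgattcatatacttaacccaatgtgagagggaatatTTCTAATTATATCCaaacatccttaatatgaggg
Myh2: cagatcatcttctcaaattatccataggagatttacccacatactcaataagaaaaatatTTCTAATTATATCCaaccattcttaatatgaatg
Myh4: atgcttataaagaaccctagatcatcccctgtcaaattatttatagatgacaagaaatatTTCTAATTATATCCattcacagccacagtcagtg
Myh8: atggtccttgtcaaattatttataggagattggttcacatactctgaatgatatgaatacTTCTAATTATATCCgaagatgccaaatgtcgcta

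The element begins 160, 125, 158 and 54 bases before the RefSeq start of Myh1, Myh2, Myh4 and Myh8. For comparison the 100 bases before the start of the embryonic Myh3 (chr11:67078200-67078299, plus strand, TATAAA in capitals) and of the slow Myh7 (chr14:54994627-54994726, minus strand) are given, neither of whose windows holds the element.
Myh3: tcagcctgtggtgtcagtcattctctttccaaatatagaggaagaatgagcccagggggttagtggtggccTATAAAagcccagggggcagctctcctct
Myh7: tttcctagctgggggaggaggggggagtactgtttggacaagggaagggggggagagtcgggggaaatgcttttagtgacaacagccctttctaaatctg

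The letters TATAAA, read on both strands of the 250 bases before the start, were found in 12.4% of all promoters. They were found in those of Myh1, Myh3, Myh4, Myh8, Myl1 and Myl2, for Myh8 on the opposite strand only. These matches describe letters in a window. In the counts, over the 12 libraries, Pearson's r of log2 CPM for all 45 pairs of members was 0.73 to 0.99 with a median of 0.89. All points share library, depth and muscle content, and the part of the element in these values was not tested.

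The first comparison asks what serum arthritis did to the myosins of mice given the control antibody. All 10 members had lower fitted levels in KBxN + aGP120 than in Naive + aGP120 mice, with a median log2 change of -1.10 against 0.03 over the 16674 genes tested. By the quasi-likelihood test of edgeR, with p-values adjusted over those genes by Benjamini-Hochberg and a threshold of 0.05, 6 of the 10 fell: all 3 slow isoforms, the fast Myl1 and Myh2, and the embryonic Myh3. Of all genes tested, 10.3% were called in either direction, 4.45% lower and 5.87% higher. In the same 6 genes no arthritic mouse overlapped a naive mouse, which held for 12.5% of all genes in either direction, 6.47% in the lower and 6.02% in the higher direction.

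Myl2, the regulatory light chain of slow fibres, had the largest estimate. It had 138, 72.8, 59.2 and 64.5 CPM in KBxN + aGP120 mice 1 to 4, against 454, 445, 358 and 616 CPM in Naive + aGP120 mice 1 to 4. Every arthritic mouse stood below the lowest naive mouse, and mouse 1, whose myeloid level was nearest to the naive range, had 29.5% of the naive mean of Myl2. The mean was 5.60-fold lower, with a log2 change of -2.48 ± 0.27 (SE; edgeR adjusted p = 0.00258). The call held when any 1 of the 12 mice was left out, with changes between -2.85 and -2.34.

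Myl3, its partner as essential light chain, had 62.3, 29.6, 39.4 and 34.9 CPM in KBxN + aGP120 mice, against 81.1, 87.4, 99.4 and 125.7 CPM in Naive + aGP120 mice. Groups did not overlap, and the log2 change was -1.24 ± 0.21 (edgeR adjusted p = 0.0079). It also held without any 1 mouse, at -1.51 to -1.11. The slow heavy chain Myh7 moved less, with 3471, 2207, 2179 and 2424 CPM in KBxN + aGP120 mice and 4111, 4046, 3709 and 6136 CPM in Naive + aGP120 mice. Its change of -0.81 ± 0.24 (edgeR adjusted p = 0.0496) lay at the threshold and was lost without any 1 of the 4 naive mice, of KBxN + aGP120 mice 2, 3 and 4, or of KBxN + 6F2 mice 1, 2 and 3 (edgeR adjusted p of 0.0643 to 0.141). For each 100 Myh7 counts there were 8.32, 8.002, 6.09 and 11.31 Myl2 counts in KBxN + 6F2 mice, 3.98, 3.30, 2.72 and 2.66 in KBxN + aGP120 mice and 11.05, 11.01, 9.65 and 10.04 in Naive + aGP120 mice. This ratio was chosen after its values were seen and was not tested. The control-antibody mice lay below both other groups, which overlapped each other.

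**Figure D1:**
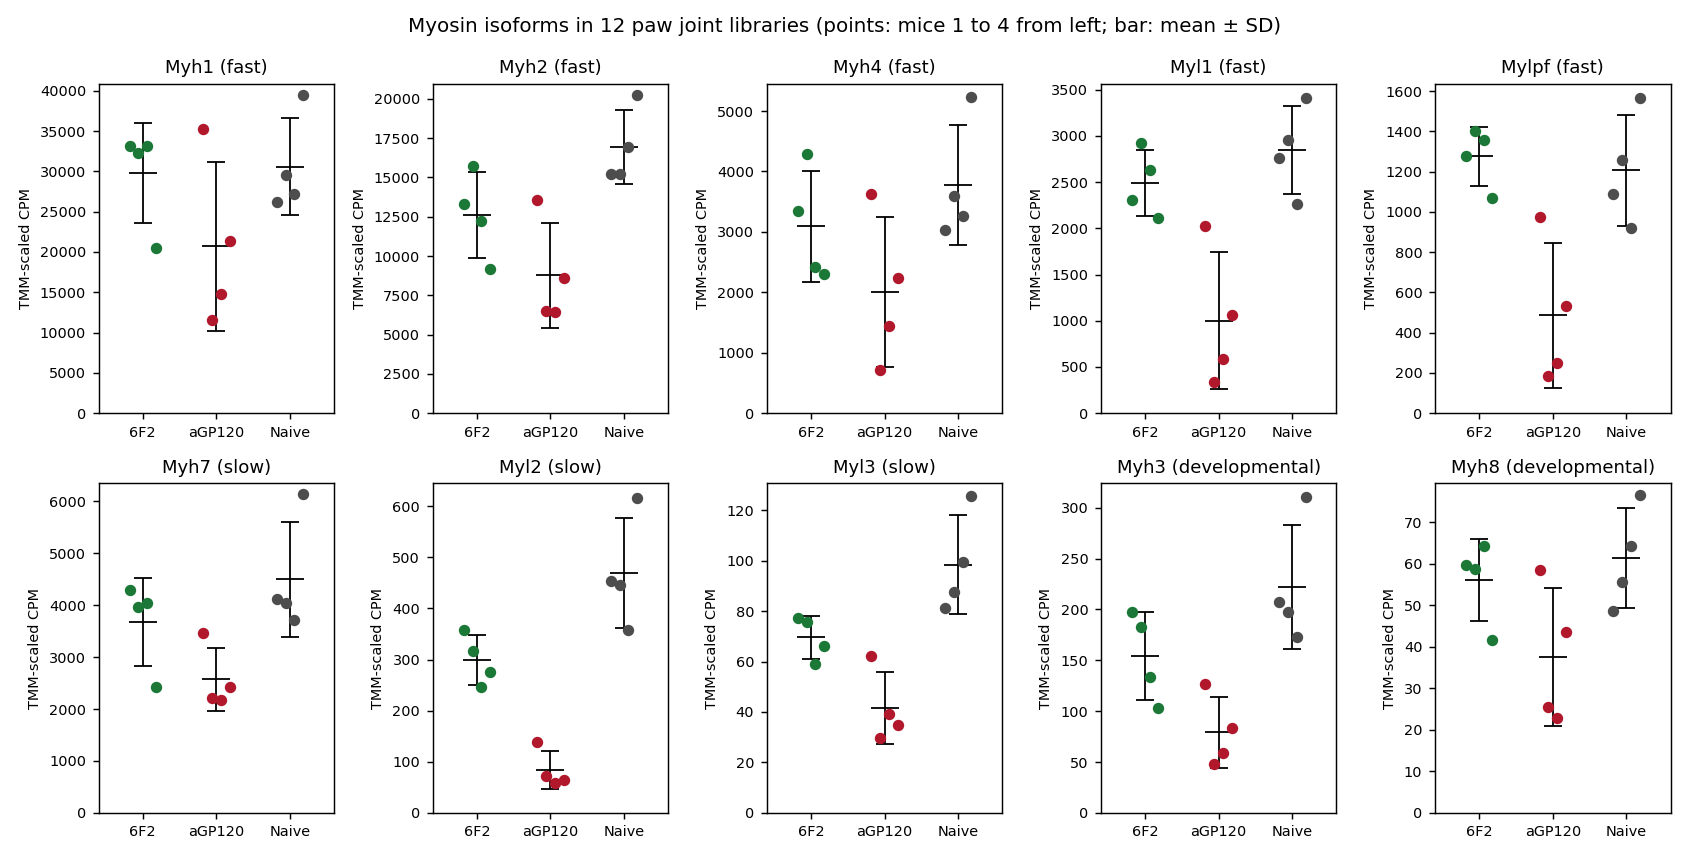
TMM-scaled CPM (y axes, linear from 0) of the 10 myosin genes in KBxN + 6F2, KBxN + aGP120 and Naive + aGP120 mice, 1 point per mouse and bars for the mean ± SD (n = 4 each). In the panel of Myl2 the 4 control-antibody mice (59.2 to 138 CPM) lie below all other mice, whereas in the panel of Myh1 control-antibody mouse 1 (35200 CPM) lies above every KBxN + 6F2 mouse.

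Among the fast isoforms, Myl1 had 2021, 337, 586 and 1065 CPM in KBxN + aGP120 mice, against 2759, 2956, 2258 and 3409 CPM in Naive + aGP120 mice. Its log2 change was -1.51 ± 0.42 (edgeR adjusted p = 0.0405), and mouse 1 stood at 71.0% of the naive mean where mouse 2 stood at 11.8%. Myh2 had 13555, 6480, 6440 and 8616 CPM in KBxN + aGP120 mice and 15245, 15245, 16963 and 20233 CPM in Naive + aGP120 mice, a change of -0.95 ± 0.27 (edgeR adjusted p = 0.0433). The calls of Myl1 and Myh2 were both lost without any 1 of the 4 naive mice, of KBxN + aGP120 mice 2, 3 and 4, or of KBxN + 6F2 mice 1, 2 and 3, with edgeR adjusted p of 0.0557 to 0.114 for Myl1 and 0.0551 to 0.131 for Myh2. Mylpf did not pass the test, with 976, 184, 250 and 533 CPM in KBxN + aGP120 mice and 1090, 1256, 918 and 1565 CPM in Naive + aGP120 mice. Mouse 1 lay inside the naive range, and the change was -1.31 ± 0.42 (edgeR adjusted p = 0.0645). Myh4, at -0.92 ± 0.40, and Myh1, at -0.56 ± 0.33, were not called either (edgeR adjusted p = 0.153 and 0.282). Myh1 had 35200, 11605, 14720.1 and 21338 CPM in KBxN + aGP120 mice, against 26153, 29591, 27206 and 39426 CPM in Naive + aGP120 mice.

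The developmental heavy chains are made before birth and again in regenerating fibres. Myh3 fell in arthritis. It had 127, 47.9, 58.6 and 83.6 CPM in KBxN + aGP120 mice, against 207, 198, 173 and 311 CPM in Naive + aGP120 mice, a log2 change of -1.48 ± 0.31 (edgeR adjusted p = 0.0164, or 0.058 without KBxN + aGP120 mouse 3, the only mouse whose removal lost the call). Myh8 ranged from 23.0 to 58.4 CPM in KBxN + aGP120 mice and from 48.6 to 76.6 CPM in Naive + aGP120 mice, and its change of -0.70 ± 0.27 was not called (edgeR adjusted p = 0.111). Neither gene was higher in arthritis. Of 8 measured genes of myogenic regeneration, such as Myod1, Myog and Pax7, edgeR called 0 (2 at an unadjusted p under 0.05, 1 by DESeq2 and 0 by limma-voom). With muscle scaling, with no filter and with a filter of 1 CPM in 4 libraries, edgeR called 1 of the 8. The muscle regulators Myod1 and Myog gave 0.68 ± 0.21 and 1.00 ± 0.37 (edgeR adjusted p = 0.051 and 0.0968). Over all alternatives the estimate of Myod1 ranged from 0.52 to 1.20.

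Leaving out KBxN + aGP120 mouse 1 changed these counts. All 10 members were then called lower, with log2 changes of -2.85 to -0.96 and a median of -1.45 (edgeR adjusted p of 2.05e-06 to 0.0152), while 27.2% of all genes were called. When any other single mouse was left out, 2 to 6 members were called. Without KBxN + aGP120 mice 2 and 4 together Myl2 no longer passed, at -2.27 (edgeR adjusted p = 0.0686). The part of the lower myeloid level of mouse 1 in these numbers was not tested.

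The second comparison asks what the SIRPa agonist did in arthritic mice. All 10 members had higher fitted levels in KBxN + 6F2 than in KBxN + aGP120 mice, with a median log2 change of 0.68 against -0.03 over all genes, but 1 of the 10 passed the test, Myl2. Of all genes, 3.29% were called in either direction, 1.59% higher and 1.7% lower. Groups did not overlap for Myl2, Myl1 and Mylpf, all higher in KBxN + 6F2 mice, as was the case for 10% of all genes in either direction, 5.18% in the higher and 4.82% in the lower direction.

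Myl2 had 357, 317, 247 and 275 CPM in KBxN + 6F2 mice 1 to 4, against 138, 72.8, 59.2 and 64.5 CPM in KBxN + aGP120 mice 1 to 4. The lowest treated mouse stood above the highest control-antibody mouse, mouse 1 included. The log2 change was 1.84 ± 0.26 (edgeR adjusted p = 0.0158). It stayed between 1.71 and 2.201 when any 1 mouse was left out, but the call was lost without KBxN + aGP120 mouse 3 (edgeR adjusted p = 0.0578) or 4 (0.0507) or without KBxN + 6F2 mouse 1 (0.0707) or 2 (0.0682). In a fit of the 2 arthritic groups alone the change was 1.87 and edgeR called 0 genes (edgeR adjusted p of Myl2 = 0.0927).

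The fast light chains missed the threshold. Mylpf had 1277, 1401, 1357 and 1068 CPM in KBxN + 6F2 mice and 976, 184, 250 and 533 CPM in KBxN + aGP120 mice, a log2 change of 1.39 ± 0.42 (edgeR adjusted p = 0.077). Myl1 had 2304, 2924, 2633 and 2109 CPM in KBxN + 6F2 mice and 2021, 337, 586 and 1065 CPM in KBxN + aGP120 mice, a change of 1.31 ± 0.42 (edgeR adjusted p = 0.0852). Treated mice stood apart from control-antibody mice in both genes, with Myl1 of control-antibody mouse 1 just under the lowest treated mouse. Myl3 gave 0.74 ± 0.21 and Myh3 0.96 ± 0.31 (edgeR adjusted p = 0.063 and 0.0894). The remaining heavy chains, Myh1, Myh2, Myh4, Myh7 and Myh8, lay between 0.52 and 0.62 with edgeR adjusted p of 0.206 to 0.351. For Myh1 the interval of the difference (95%) was -0.19 to 1.23 on the log2 scale, so the miss of the threshold does not show that Myh1 was alike in both groups.

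Again mouse 1 of the control-antibody group decided the number of calls. Without it all 10 members were called higher in KBxN + 6F2 mice, with log2 changes of 0.71 to 2.201 and a median of 1.05 (edgeR adjusted p of 1.11e-05 to 0.0484), and 23% of all genes were called. Without any other single mouse, 0 or 1 members were called. Without control-antibody mice 2 and 4 together Myl2 had 1.62 and did not pass (edgeR adjusted p = 0.177).

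In the third comparison, of KBxN + 6F2 with Naive + aGP120 mice, edgeR called 0 of 16674 genes (0%; 675 at an unadjusted p under 0.05, 20 by DESeq2 and 0 by limma-voom) and 0 of the 10 members (2 at an unadjusted p under 0.05, 0 by DESeq2 and 0 by limma-voom). The median log2 difference of the members was -0.29, against -0.01 over all genes, and 9 of 10 were below 0. With muscle list scaling the median was -0.06 for the members and 0.26 over all genes. Myh1, Myh8 and Myl1 then lay above 0, the level of the muscle list, and below the median of all genes. Mylpf, at 0.34, lay above both. Both slow light chains were lower in treated mice without overlap of the groups, which held for 4.89% of all genes in either direction, 1.85% in the lower and 3.04% in the higher direction. Myl2 reached 247 to 357 CPM in KBxN + 6F2 mice, against 358 to 616 CPM in Naive + aGP120 mice (log2 change -0.65 ± 0.25, 95% interval -1.19 to -0.10, edgeR adjusted p = 1). The highest treated mouse and the lowest naive mouse nearly met. Myl3 reached 59.2 to 77.4 CPM in KBxN + 6F2 mice and 81.1 to 125.7 CPM in Naive + aGP120 mice (-0.50 ± 0.21). Mylpf had the opposite sign, at 0.08 ± 0.41, with 1276 ± 148 CPM in KBxN + 6F2 mice and 1207 ± 275 CPM in Naive + aGP120 mice. This comparison shares its groups with the other 2, so their values are not independent of each other.

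Changes relative to muscle were examined by scaling the libraries to the list of 17 muscle genes in place of TMM. This moved the median of all genes to 0.46 for arthritis against naive and to -0.20 for 6F2 against control antibody. Under this scaling 0 stands for no change relative to the muscle list, not relative to all genes. Because 7 of the 17 genes are also fast sarcomere partners, a change relative to the list is in part one relative to fast fibre genes. None of those 17 muscle genes was itself called by edgeR in either comparison under TMM (5 and 2 at an unadjusted p under 0.05), with medians of -0.48 and 0.42. With muscle scaling 4 members were called lower in KBxN + aGP120 than in Naive + aGP120 mice: Myl2 (-2.098 ± 0.27), Myh3 (-1.12 ± 0.23), Myl1 (-1.26 ± 0.30) and Myh2 (-0.57 ± 0.14). Their edgeR adjusted p-values were 0.00132, 0.0203, 0.0401 and 0.0418. Myh7 (-0.38 ± 0.16) and Myl3 (-0.83 ± 0.26) no longer passed (edgeR adjusted p = 0.165 and 0.0779). In KBxN + 6F2 against KBxN + aGP120 mice Myl2 alone passed, at 1.72 ± 0.26 (edgeR adjusted p = 0.0122).

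Counted per 10000 counts of the muscle list, Myl2 had 15.1, 13.3, 11.6 and 22.8 in KBxN + 6F2 mice, 5.80, 5.74, 4.10 and 3.42 in KBxN + aGP120 mice and 25.4, 21.3, 15.5 and 19.5 in Naive + aGP120 mice. Control-antibody mouse 1 thus stood with its group on this measure, although its muscle list was at 102% of the naive mean. Myh3 was lowest in the control-antibody group too, with the other groups overlapping, at 6.28 to 8.60 in KBxN + 6F2 mice, 3.78 to 5.33 in KBxN + aGP120 mice and 7.45 to 11.6 in Naive + aGP120 mice. For Myh7 the ranges overlapped, at 166 to 202, 129 to 174 and 160 to 230 in the same order of groups.

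**Figure D2:**
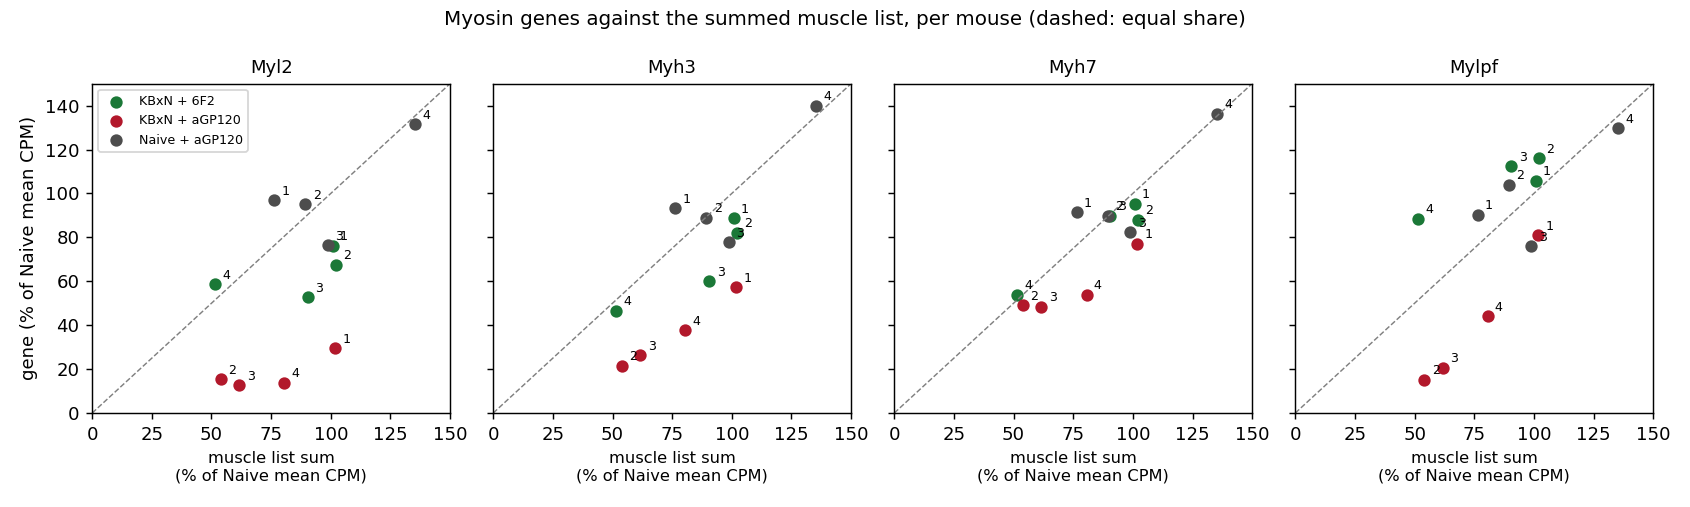
Level of Myl2, Myh3, Myh7 and Mylpf (y axis, % of the naive mean CPM) against the summed muscle list (x axis, % of the naive mean CPM), 1 numbered point per mouse, with the dashed line where both are equal. The 4 KBxN + aGP120 mice lie far below the line for Myl2, at 12.6 to 29.5% of the naive mean with the muscle list at 54.1 to 102%, and they lie below it by less for Myh7, at 48.4 to 77.1%.

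**Figure D3:**
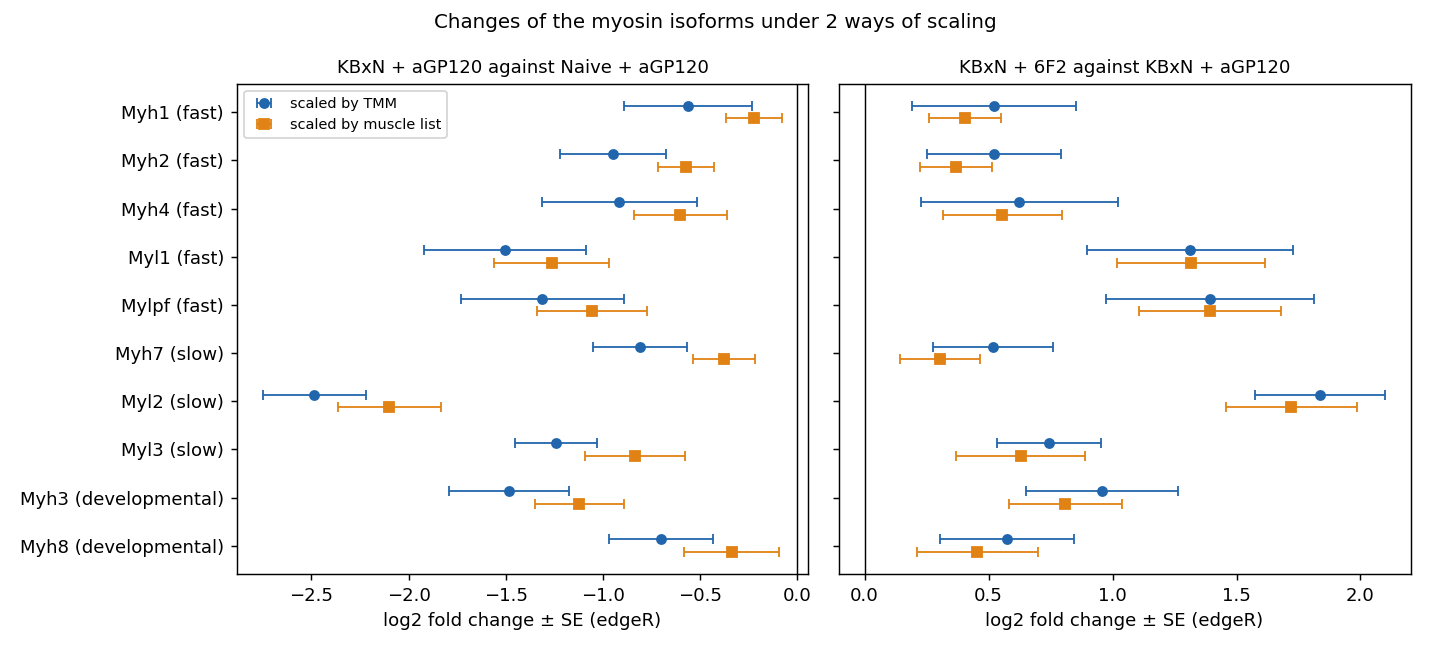
Log2 fold changes ± SE from edgeR (x axes) of the 10 genes under TMM (circles) and muscle list scaling (squares), for KBxN + aGP120 against Naive + aGP120 on the left and KBxN + 6F2 against KBxN + aGP120 on the right. Muscle scaling moves every arthritis estimate towards 0, Myl2 to -2.098 under muscle scaling, with -2.48 under TMM, and Myh1 to -0.22, with -0.56 under TMM.

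Exon length differs among the light chain genes, at 1062 bases for Mylpf, 1950 for Myl2, 2044 for Myl3 and 2074 for Myl1. Protein-coding genes with 1 to 2 kb of exon (1411 genes) had a median log2 change of -0.03 for KBxN + aGP120 against Naive + aGP120 and 0.04 for KBxN + 6F2 against KBxN + aGP120. Those with 2 to 4 kb (4205 genes) had 0.03 and -0.03 in the same comparisons. By exon length Mylpf and Myl2 fall in the first of these classes and Myl3 and Myl1 in the second. Genes with up to 1 kb (312 genes), a class that holds none of the light chains, had -0.23 and 0.18, the same signs as the light chains. By longest coding transcript, a measure that these classes do not use, Mylpf, Myl2, Myl3 and Myl1 have 766, 889, 937 and 1082 bases. The part of length in the light chain values was not tested.

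Isoform make-up was then compared within each library, which needs no scaling between libraries. Fast isoforms made up 91.8 to 92.7% of heavy chain counts per kb in KBxN + 6F2 mice, 89.4 to 93.6% in KBxN + aGP120 mice and 91.1 to 92.5% in Naive + aGP120 mice. Myh1 alone took 60.4 ± 2.77%, 59.7 ± 3.36% and 54.5 ± 1.45%, and Myh2 25.6 ± 1.94%, 26.4 ± 2.99% and 30.4 ± 2.16%, in the same order of groups. All 4 treated mice had a Myh1 share above the naive range (57.2 to 63.8% against 53.0 to 56.2%). Their Myh2 share lay below the naive range of Myh2 (23.5 to 27.8% against 28.4 to 33.0%). Myh1 and Myh2 share sequence, so this split depends on how shared reads were counted. Myh3 took 0.259 to 0.366% in KBxN + 6F2 mice, 0.229 to 0.243% in KBxN + aGP120 mice and 0.339 to 0.439% in Naive + aGP120 mice. Its share was lowest in the 4 control-antibody mice, mouse 1 among them at 0.229%.

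Among light chains the slow pair made up 7.49 to 11.3% in KBxN + 6F2 mice, 6.13 to 17.1% in KBxN + aGP120 mice and 11.97 to 13.7% in Naive + aGP120 mice. In the control-antibody group the share was 17.1% in mouse 2, which had the fewest counts of all libraries, 11.1% in mouse 3, 6.597% in mouse 1 and 6.13% in mouse 4. Mylpf took 36.8 to 39.0% in KBxN + 6F2 mice, 33.4 to 38.9% in KBxN + aGP120 mice and 31.1 to 33.9% in Naive + aGP120 mice. All treated mice stood above all naive mice in this share. They stood below all naive mice in the share of Myl2, at 6.10 to 9.38% against 10.1 to 11.5%. Shares within a pool depend on each other, and no difference in the heavy or light chain shares was tested.

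**Figure D4:**
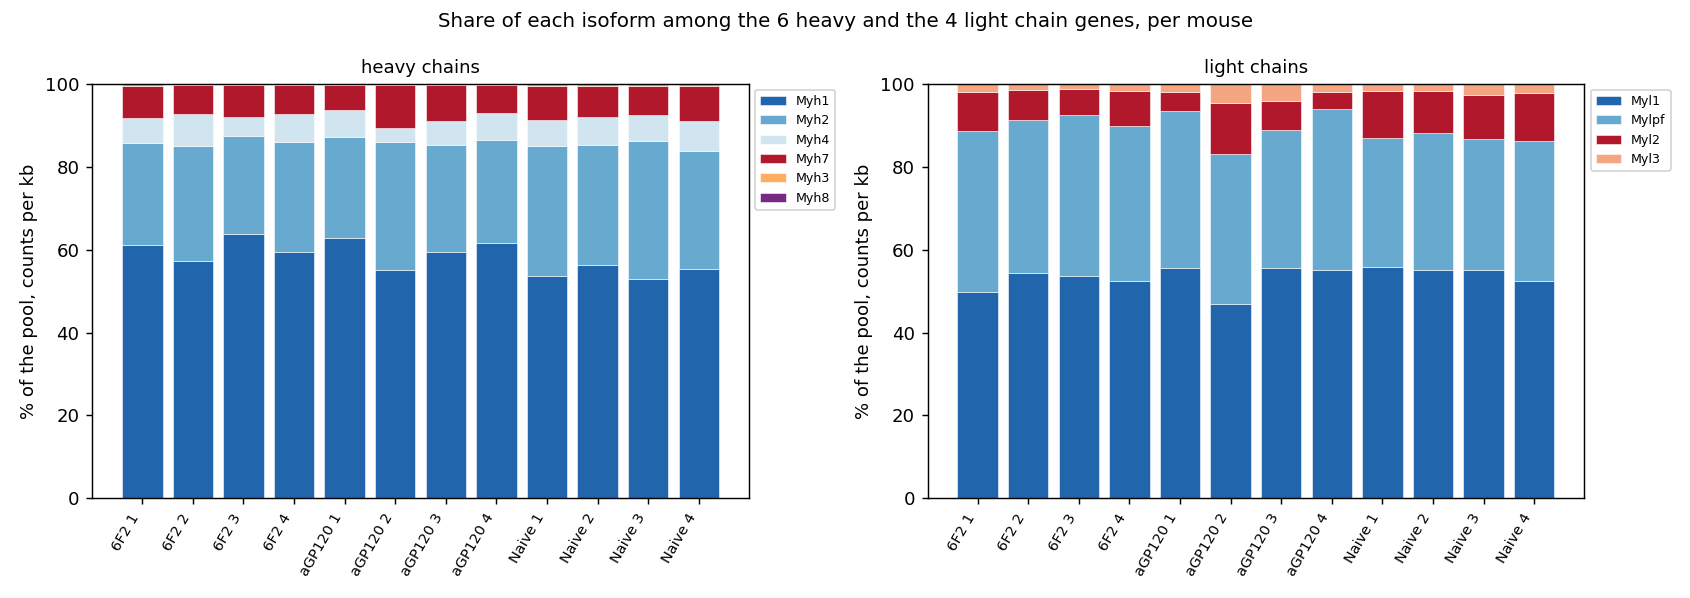
Share of each isoform (y axis, % of the counts per kb) among the 6 heavy chain genes (left) and the 4 light chain genes (right), 1 bar per mouse, fast isoforms in blue and slow isoforms in red. Fast isoforms take 89.4 to 93.6% of the heavy chains in all 12 mice, and Myh3 and Myh8 are too rare to be seen as bands.

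Of the slow-to-fast ratios, 3 were tested by exact two-sided permutation tests over mice in the 3 comparisons, 9 tests in all. With 4 mice a side such a test cannot give a p below 0.0286. None passed after Benjamini-Hochberg adjustment over the 9. A single exact p at that floor adjusts to 0.257 here, so the lack of a pass does not show that the ratios were alike. Myl2 to Mylpf, the slow against the fast regulatory light chain, was 27.9, 22.6, 18.2 and 25.7 counts per 100 in KBxN + 6F2 mice, 14.2, 39.6, 23.7 and 12.1 in KBxN + aGP120 mice and 41.7, 35.5, 39.0 and 39.4 in Naive + aGP120 mice. All treated mice lay below all naive mice (log2 difference -0.74, exact p = 0.0286, 0.257 adjusted). Control-antibody mice differed from naive mice by -0.96 (exact p = 0.114, 0.429 adjusted), with mouse 2 at the naive level. Myl3 to Myl1, the essential light chains, gave 0.52 for KBxN + aGP120 against Naive + aGP120 mice and -0.82 for KBxN + 6F2 against KBxN + aGP120 mice (exact p = 0.286 and 0.143, 0.514 and 0.429 adjusted). Myh7 to Myh4, the slow against the fastest heavy chain, gave 0.31 and -0.30 (exact p = 0.6 and 0.571, 0.707 adjusted for both).

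The proteins that work beside the myosins were read from lists of sarcomere partners. Of 10 slow partners, edgeR called 7 lower in KBxN + aGP120 than in Naive + aGP120 mice, beside 4.45% of all genes. The list median was -0.91, beside 0.03 over all genes. The 4 with the smallest p were slow troponin I, Tnni1 (-1.49 ± 0.22, edgeR adjusted p = 0.00535), the slow tropomyosin Tpm3 (-1.24 ± 0.20, 0.00717 adjusted), the calcineurin-binding Z-disc protein Myoz2 (-1.55 ± 0.27, 0.00964 adjusted) and slow troponin C, Tnnc1 (-1.53 ± 0.28, 0.00999 adjusted). Tnni1 had 151 ± 61.5 CPM in KBxN + aGP120 mice and 425 ± 66.8 CPM in Naive + aGP120 mice. These 4 calls held without any 1 mouse. The remaining calls were each lost without 6 or 7 of the 12 mice taken singly, and none of them passed with muscle scaling (edgeR adjusted p of 0.101 to 0.958). Of the 10 slow partners edgeR called 3 with muscle scaling, 4 with only the 2 groups compared and 0 without KBxN + aGP120 mice 2 and 4. All genes called were then 2.51%, 2.74% and 0.00577%. DESeq2 called 9 of the 10 and limma-voom 7, beside 17.4% and 6.97% of all genes. With muscle scaling Tnni1, Myoz2 and Tnnc1 passed and Tpm3 did not (edgeR adjusted p = 0.0247, 0.0203, 0.0178 and 0.0692).

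The same 4 slow partners were higher in KBxN + 6F2 than in KBxN + aGP120 mice, at 1.11 ± 0.20 for Tpm3, 1.34 ± 0.27 for Myoz2, 1.23 ± 0.28 for Tnnc1 and 0.89 ± 0.22 for Tnni1 (edgeR adjusted p = 0.0247, 0.0305, 0.0375 and 0.0468). Higher calls made up 1.59% of all genes there. The comparisons share the control-antibody mice. Each of the 4 was lost without 5 to 10 of the 12 mice taken singly, among them KBxN + aGP120 mice 2, 3 and 4 and KBxN + 6F2 mice 1 and 2 (edgeR adjusted p of 0.0517 to 0.142), and with muscle scaling the estimates were 0.93, 1.26, 1.15 and 0.77 and none passed (edgeR adjusted p = 0.129, 0.0629, 0.0700 and 0.195).

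Of 10 fast partners edgeR called 0 in either comparison, with medians of -0.49 and 0.51. At an unadjusted p under 0.05 there were 4 for KBxN + aGP120 against Naive + aGP120 (3 called by DESeq2, 1 by limma-voom) and 3 for KBxN + 6F2 against KBxN + aGP120 (2 by DESeq2, 0 by limma-voom). Without KBxN + aGP120 mouse 1 the counts called by edgeR were 7 and 6, beside 27.2% and 23% of all genes. The calsequestrin Casq1 gave -0.85 ± 0.27 and the tropomyosin Tpm1 -0.85 ± 0.30 in arthritis (edgeR adjusted p = 0.0571 and 0.083). Mybpc2, the fast myosin-binding protein C, had the opposite sign, at 0.96 ± 0.29 (edgeR adjusted p = 0.0522), with 453 ± 103 CPM in KBxN + aGP120 mice and 233 ± 28.5 CPM in Naive + aGP120 mice. Whether slow and fast partners differ from each other was not tested, and 7 of the 10 fast partners belong to the muscle list used for scaling.

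**Figure D5:**
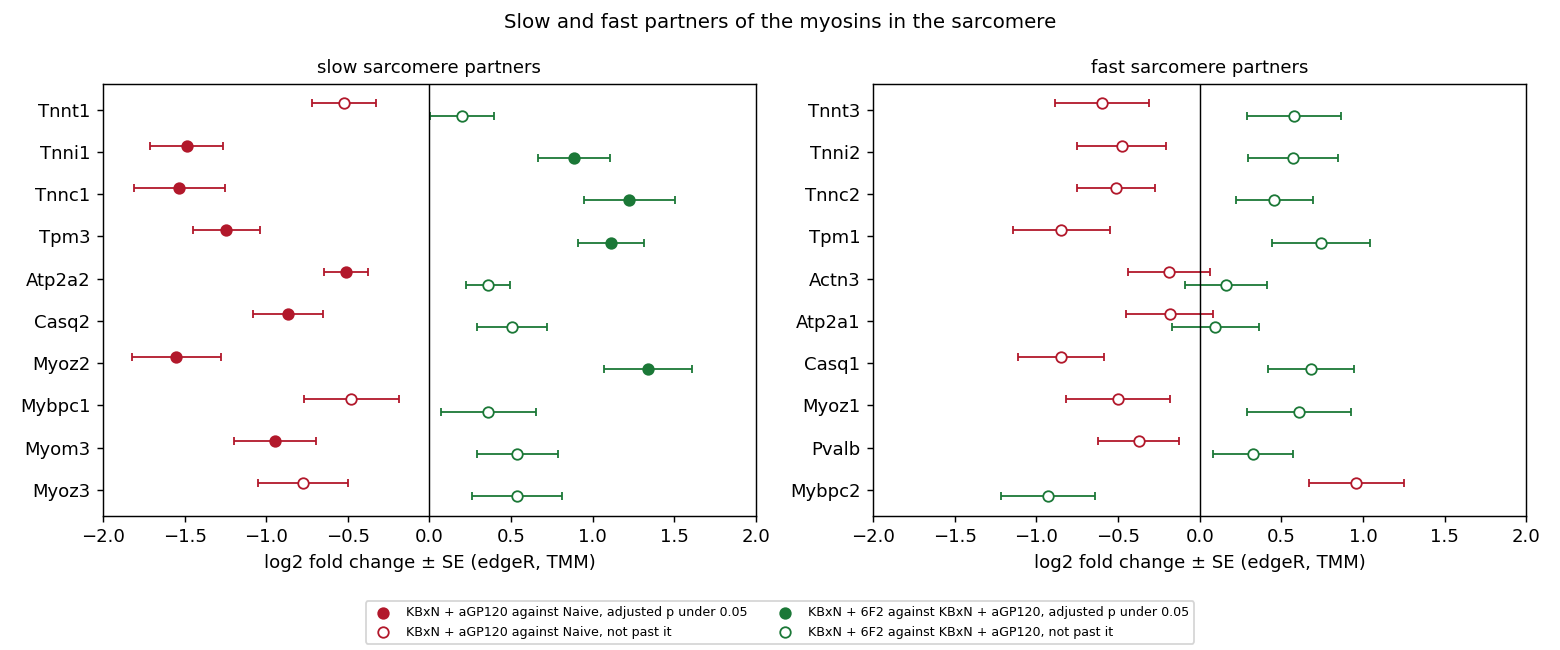
Log2 fold changes ± SE from edgeR with TMM (x axes) of 10 slow (left) and 10 fast (right) sarcomere partners, red for KBxN + aGP120 against Naive + aGP120 and green for KBxN + 6F2 against KBxN + aGP120, filled where the adjusted p is under 0.05. In red 7 slow and 0 fast partners are filled, in green 4 slow and 0 fast ones, and Mybpc2 lies on the other side of 0 from the other fast partners.

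Other myosins gave a mixed picture. Myl6b, an essential light chain found in slow muscle and in non-muscle cells, fell with the slow isoforms: it had 108 ± 49.2 CPM in KBxN + aGP120 mice and 306 ± 56.9 CPM in Naive + aGP120 mice (-1.50 ± 0.26, edgeR adjusted p = 0.00964), and it was the 1 gene called among 6 tested further striated myosins. Beside it 4.45% of all genes were called lower. In KBxN + 6F2 mice Myl6b averaged 215 ± 30.5 CPM, with a change of 0.99 ± 0.26 against KBxN + aGP120 mice (edgeR adjusted p = 0.0546). Of 8 non-muscle and smooth muscle myosins, 1 rose and 2 fell in arthritis, beside 5.87% and 4.45% of all genes. Myh9, the main heavy chain of blood and connective tissue cells, had 1196 ± 447 CPM in KBxN + aGP120 mice and 610 ± 80.1 CPM in Naive + aGP120 mice (0.97 ± 0.24, edgeR adjusted p = 0.0266), while Myh10 (-0.66 ± 0.14) and the light chain Myl12a (-0.56 ± 0.15) were lower (edgeR adjusted p = 0.0151 and 0.0361). With muscle scaling Myh9 was at 1.49 ± 0.48, Myh10 at -0.16 and Myl12a at -0.11, and none of the 3 passed (edgeR adjusted p = 0.101, 0.712 and 0.832). Their calls were lost without 1 mouse for Myh10 (KBxN + aGP120 mouse 3, edgeR adjusted p = 0.0505) and without any 1 of 7 mice for Myh9 (all 4 naive mice and KBxN + aGP120 mice 2, 3 and 4) and for Myl12a (naive mice 2, 3 and 4, KBxN + aGP120 mice 2, 3 and 4 and KBxN + 6F2 mouse 2). The edgeR adjusted p-values were then 0.0544 to 0.0898 for Myh9 and 0.0515 to 0.0999 for Myl12a.

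In arthritis 14 regulators of fibre type had a median of -0.53. Beside 4.45% of all genes called lower and 5.87% called higher, 0 of the regulators rose and 4 fell. They were Ppargc1a, the coactivator of mitochondrial and slow fibre genes (-1.35 ± 0.29, edgeR adjusted p = 0.0177), the nuclear receptor Esrrg of oxidative fibres (-1.07 ± 0.25, 0.0203 adjusted), the T-box factor Tbx15 of fast glycolytic fibres (-0.96 ± 0.23, 0.0214 adjusted) and Mef2c, a general activator of muscle genes (-0.95 ± 0.28, 0.0478 adjusted). Regulators of both fibre classes were thus among them. Esrrg was higher in KBxN + 6F2 than in KBxN + aGP120 mice (1.04 ± 0.25, edgeR adjusted p = 0.0403). It was the 1 regulator called there, beside 1.59% of all genes called higher. Each of these 5 calls was lost without some mice taken singly, between 3 and 10 of the 12 and always KBxN + aGP120 mice 2 and 3 among them (edgeR adjusted p of 0.0506 to 0.14). None of the 5 passed with muscle scaling, where the arthritis estimates were -1.02, -0.71, -0.57 and -0.60 in the order above and that of Esrrg in treated mice was 0.95 ± 0.31 (edgeR adjusted p = 0.0679, 0.168, 0.105, 0.0821 and 0.22). Among 11 genes of myosin folding, myosin kinases and the M-band, 1 fell, Smyd1, a methyltransferase needed for thick filament assembly (-0.92 ± 0.24, edgeR adjusted p = 0.0314), beside 4.45% of all genes called lower. With muscle scaling it was at -0.56 ± 0.23 (edgeR adjusted p = 0.149). The call was lost without any 1 of the 4 naive mice or of KBxN + aGP120 mice 2, 3 and 4 (edgeR adjusted p of 0.052 to 0.0925).

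The genes whose pattern over the 12 libraries was most like that of a member were found by Pearson's r of log2 CPM among 16638 tested genes with a symbol. For Myl2 these were Ablim1 (0.985), Fgf6 (0.983), Ppm1j (0.982), Tgfb2 (0.982) and Dnaja4 (0.982). For Mylpf they were the pseudogene Mylf-ps (0.992), Wbp1 (0.991), St3gal6 (0.991), Cops4 (0.990) and Cmbl (0.990). For Myh3 they were Ppp6r2 (0.983), Msi2 (0.982), Dlat (0.981), Nrap (0.981) and Cry2 (0.981). The 12 points share library, depth and muscle content, and the values describe likeness over these mice.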

How the data were processed

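Total RNA of 12 paw joint samples had been made into stranded total RNA libraries (per the labels' protocols), and the deposited files hold whole-number read counts per gene, not normalized by the authors. The submitters' processing notes name build GRCm38. Which aligner, counting program and strand setting were used, and how reads fitting several genes were handled, the labels do not say. Total counts were 13791454 to 17597920 in KBxN + 6F2, 6893969 to 13416033 in KBxN + aGP120 and 14289363 to 16205593 in Naive + aGP120 libraries.

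Counts were fitted with edgeR 4.0.16 in R 4.3.3 (filterByExpr by group, TMM, robust quasi-likelihood F-test, all 12 libraries, 1 coefficient per group). This left 16674 genes, the p-values of which were adjusted by Benjamini-Hochberg with a threshold of 0.05. The biological coefficient of variation was 0.334. CPM are TMM-scaled and errors are SD of 4 mice or SE of a log2 change (intervals use the t quantile of the fit). Of 52636 identifiers 52403 are in GENCODE M21. Promoter sequences are RefSeq's (GRCm38.p6). No protein sequences were used here. Alternatives were RLE factors, muscle list scaling, other filters, DESeq2 1.42.0, limma-voom (limma 3.58.1), a replicate block, fits of 2 groups and fits without single or paired libraries.

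Members, gene lists and tests were chosen with earlier results of these data known. All members are named, and from other lists up to 4 genes with the smallest p per comparison, not all of which are reported. For Myl2, Mylpf and Myh3 the 5 most similar genes are named.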

Additional observations from a re-analysis of the deposited data

Results flagged for a closer look

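In 39 groups of 4 mice (10 genes and 3 ratios in 3 groups each) the gap between the most extreme mouse and its nearest neighbour was set against the range of the group, and 2 groups exceeded the critical value, where chance alone gives about 1 in 20. Myh1 had 20450.6 CPM in KBxN + 6F2 mouse 4, against 32304 to 33176 CPM in the other treated mice, a gap of 0.932 of the range. The same library had the lowest muscle list of all 12 (51.4% of the naive mean) and the highest epidermis list, at 20935 CPM. Myh7 had 6136.23 CPM in Naive + aGP120 mouse 4, against 3709 to 4111 CPM in the other naive mice, a gap of 0.835 of the range. That library had the highest muscle list, at 135% of the naive mean, and an epidermis list of 11.7 CPM. The part of tissue content in both values was not tested.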

How the results depend on the processing

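Relative to the 6, 1 and 0 members and the 1721, 548 and 0 genes called for KBxN + aGP120 against Naive + aGP120, KBxN + 6F2 against KBxN + aGP120 and KBxN + 6F2 against Naive + aGP120, the direction of all 10 members was kept in the first 2 comparisons under every alternative run. For arthritis against naive the members called were 3 with the replicate block, 3 with only the 2 groups compared, 2 without Naive 4 and 6F2 2, the libraries poorest in skin, and 0 without control-antibody mice 2 and 4. Genes called were then 735, 435, 166 and 1, and they were 419 with muscle scaling and 2905 with DESeq2. DESeq2 called 8 members and limma-voom 7. For 6F2 against control antibody the members called were 5 with DESeq2 and 0 with the 2 groups alone, without the skin-poor libraries or without mice 2 and 4. Genes called were then 1892, 0, 0 and 0, and they were 13 with muscle scaling, 345 with limma-voom and 78 with the replicate block. For 6F2 against naive DESeq2 called 20 genes and the fit without a filter 4. The cause of these differences was not tested, except that fewer samples entered the reduced fits.

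Leaving out 1 mouse gave 2 to 10 and 0 to 10 members, and 412 to 4694 and 0 to 3976 genes, in the first 2 comparisons, the highest values without control-antibody mouse 1. In the third, Myh1 (-0.11 to 0.14), Myh8 (-0.22 to 0.029) and Mylpf (-0.031 to 0.26) changed sign without some mice. Myh1, Myh8 and Myl1 became 0.18, 0.12 and 0.053 with muscle scaling (median of all genes 0.26), and Myh1 and Myh8 0.089 and 0.000496 without the skin-poor libraries. Under muscle scaling Tead1, a fibre type regulator, was at 0.0089 in arthritis against naive, near the level of the muscle list. The median of all genes there was 0.46. The log2 ratio of Myh7 to Myh4 ranged from -0.039 to 0.52, -0.51 to 0.049 and -0.15 to 0.14 without single mice, and that of Myl2 to Mylpf from -0.023 to 0.55 for 6F2 against control antibody.

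Mice with the same number did not deviate together (r of -0.02 to 0.21, -0.13 to 0.10 and -0.80 to -0.08 in the 3 comparisons), so the numbers name animals, and the block called 3, 1 and 0 members. The alternatives for genes outside the members were chosen after seeing the data. Depth does not bound the members: Myh8, the rarest per kb, had 23.0 CPM or more in every library, where 3 counts correspond to at most 0.394 CPM. Groups of 4 mice, a control group that mouse 1 widens, and unknown handling of reads shared among heavy chains limit what the calls can show.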
